A study of Caenorhabditis elegans with 11 samples.

Results

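Old worms that lacked the aryl hydrocarbon receptor on indole-making bacteria were set against old wild-type worms on bacteria that make no indole, in 4 of the 11 whole-animal Caenorhabditis elegans libraries of the series. The libraries were taken by their titles and no measured value entered the choice. The late ahr-1 group (replicates 1 and 3, n = 2) carries ahr-1(ia3), a loss-of-function allele of the receptor gene, and was fed the indole-positive Escherichia coli strain K12. The late N2 group on tnaA (replicates 2 and 3, n = 2) is wild type for ahr-1 and was fed a K12 derivative that lacks tryptophanase, which splits tryptophan to free indole. Worms of both groups were kept at 16 °C, lived on their bacteria from the embryo stage, were 12 days old and were pooled at about 150 adults per sample. Genotype and bacteria differ together between these groups, so their separate parts in a difference cannot be told apart from these 4 libraries. Late N2 on K12 (replicates 1 and 3, n = 2) gives a level with receptor and indole both present and is printed beside single genes. Early N2 on K12 (n = 3) and early N2 on tnaA (n = 2) give the difference between bacteria in young wild-type worms, aged 3 days by the labels and described as 2-day adults in the series' design text. The mutant group rests on 1 allele, no ahr-1 worms on tnaA bacteria were analysed here, and nothing in the labels ties a replicate number to a shared culture or day. Whole animals were sequenced, so fewer cells of a type and less RNA per cell cannot be told apart.

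The aryl hydrocarbon receptor is a transcription factor of the basic helix-loop-helix PAS family that pairs with a partner protein, called ARNT in mammals and AHA-1 in worms, to bind DNA. In mammals it is activated by small aromatic ligands, among them indoles made by gut bacteria, and it induces enzymes that modify and clear foreign compounds. In C. elegans AHR-1 is best known from neurons, where it takes part in the fate of sensory neurons and in the expression of soluble guanylate cyclases in the oxygen-sensing URX cells. Of the compared groups, one lacks the receptor and the other lacks bacterial indole. Whether bacterial indole acts through AHR-1 in these worms was not tested. A gene that both losses shift by the same amount from late N2 on K12 has no difference in this comparison, since the difference between both groups equals the difference between both shifts.

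The 2 ahr-1 libraries held 10.4 and 11.9, against 14.7 and 8.31 in the N2 libraries on tnaA, in units of 1e6 reads assigned to genes. Of gene, no-gene and ambiguous reads together, 13.8% and 11.6% fell in no gene in ahr-1 libraries, against 9.26% and 14.8% in tnaA libraries. The smallest library, N2 on tnaA replicate 3, thus also had the highest share. Tissue markers expected of whole worms passed the filter on low counts, with 28 of 28 found for the intestine, 34 of 36 for muscle, 39 of 39 for neurons, 13 of 16 for the hypodermis and 34 of 34 for the germ line. Levels are counts per 1e6 reads scaled by TMM (CPM), given for replicates 1 and 3 of ahr-1 on K12 and then replicates 2 and 3 of N2 on tnaA. They are not corrected for gene length and are compared within a gene only. Differences are log2 fold changes of ahr-1 on K12 over N2 on tnaA with their standard error, from edgeR's quasi-likelihood test, with Benjamini-Hochberg adjustment across the whole table. Calls need an adjusted p under 0.05, and only called genes are said to rise or fall. For every gene named with levels, the libraries of both groups do not overlap unless stated.

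Of 15133 genes tested, 1410 were higher in ahr-1 worms (9.32%) and 1501 were lower (9.92%). Percentages given in parentheses after a list's counts are shares of its tested members, to be read beside these shares of all genes, and a list's share near them says nothing particular of that list. By at least 2-fold, 217 were higher and 326 were lower. The first principal component of the 6 late libraries held 54.5% of the variance, with ahr-1 libraries at 49.3 and 48.3 and all 4 wild-type libraries below 0, the lowest at -30.2. Both late wild-type groups thus lay together on that axis, and the second component, with 19.3% of the variance, held N2 on tnaA at 14.0 and 33.5 and N2 on K12 at -24.1 and -22.4. In counts given without a library, that library is named by tnaA, K12 (both N2) or ahr-1 and its replicate, and is a late one unless called early. Leaving out N2 on tnaA replicate 2 gave 826 higher and 822 lower genes, without N2 on tnaA replicate 3 there were 584 and 775, and without ahr-1 on K12 replicate 3 there were 816 and 792.

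**Figure D1:**
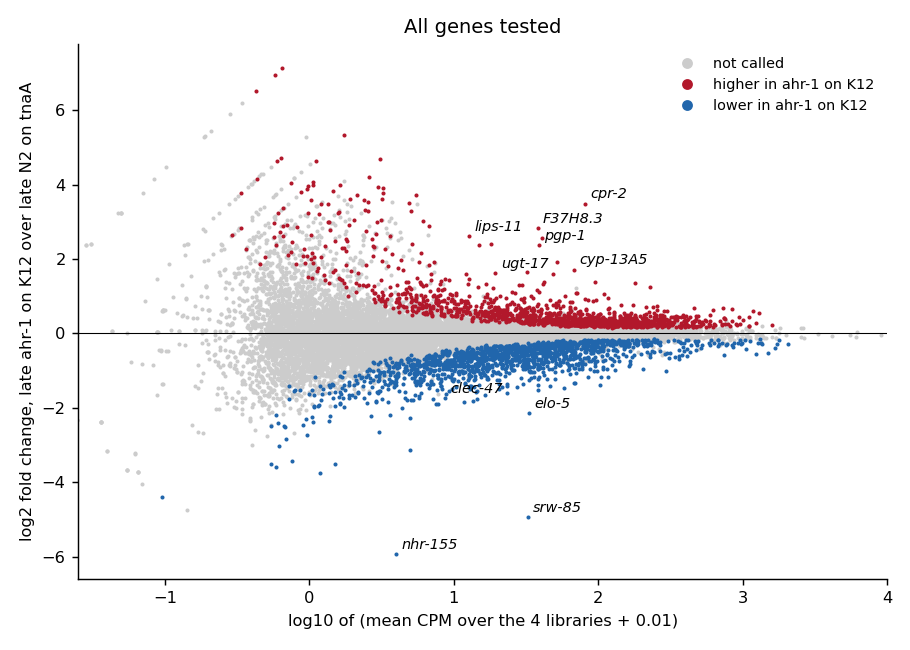
Each point is 1 of the 15133 genes tested. The x axis gives the log10 of the mean CPM over the 4 compared libraries plus 0.01 and the y axis the log2 fold change of late ahr-1 on K12 over late N2 on tnaA. Red points are the 1410 genes called higher and blue points the 1501 called lower, with cpr-2 (log2 fold change 3.48) and srw-85 (-4.94) far from the rest at their level.

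The receptor gene itself was low in all late worms. It held 19 and 14 reads in ahr-1 worms, against 44 and 17 reads in tnaA-fed worms, which is 1.59 and 1.03 CPM in ahr-1 worms, against 2.6 and 1.75 CPM in tnaA-fed worms. The log2 fold change was -0.76 ± 0.48, adjusted p = 0.297, so the reads of ahr-1 do not by themselves check the genotype at this depth. Its partner gene aha-1 fell (34.3 and 34.4 CPM in ahr-1 worms, against 43.8 and 41.1 CPM in tnaA-fed worms, log2 fold change -0.31 ± 0.08, adjusted p = 0.0152). That call was lost without N2 on tnaA replicate 2 or ahr-1 on K12 replicate 1 or ahr-1 on K12 replicate 3. Among the 15 listed genes of the receptor, its partners and the URX neurons, 4 fell and 1 rose (26.7% and 6.67%), with falls numbering 1 without tnaA replicate 2 or ahr-1 replicate 3 and 2 without tnaA replicate 3 or ahr-1 replicate 1. The soluble guanylate cyclase gene gcy-37, expressed in URX neurons, fell (7.44 and 6.65 CPM in ahr-1 worms, against 16.3 and 12.2 CPM in tnaA-fed worms, log2 fold change -1.03 ± 0.20, adjusted p = 0.00339), and so did unc-86, a POU homeodomain factor of neuronal fate (26.3 and 23.1 against 36.4 and 44.2 CPM, -0.699 ± 0.17, adjusted p = 0.0108). Both ahr-1 libraries held less of these transcripts than either tnaA library. The gcy-37 call was lost without N2 on tnaA replicate 2, and that of unc-86 without N2 on tnaA replicate 3 or ahr-1 on K12 replicate 3. The fourth fall was hif-1, the hypoxia factor that shares AHA-1 as a partner, with a log2 fold change of -0.17 ± 0.05, adjusted p = 0.0364, a call lost without any one of 8 libraries, all 4 compared ones included. The gene that rose was ahcy-1, an enzyme of the methionine cycle also entered in this list, and is described with the methionine cycle genes.

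The largest separations between both groups lay in single genes with unlike levels in late N2 on K12. The class W chemoreceptor gene srw-85 had 2.26 and 1.85 CPM in ahr-1 worms, against 67.4 and 58.1 CPM in tnaA-fed worms. Its fall (log2 fold change -4.94 ± 0.16, adjusted p = 1.87e-09) was second in size where tnaA-fed worms averaged 5 CPM or more, and late N2 on K12 had 44.1 and 50.7 CPM, on the side of the tnaA-fed worms. Against late N2 on K12, the fold change of ahr-1 worms was -4.53 ± 0.16 (adjusted p = 6.54e-09), while late N2 on K12 over N2 on tnaA gave -0.41 ± 0.10 (adjusted p = 0.0241).

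The nuclear hormone receptor gene nhr-155 showed another pattern. It had 0.167 and 0.0739 CPM in ahr-1 worms, against 7.2 and 8.45 CPM in tnaA-fed worms (log2 fold change -5.94 ± 0.54, adjusted p = 1.07e-04), and late N2 on K12 had 0.286 and 0.182 CPM. Worms on K12 of both genotypes thus held little of it, and only the tnaA-fed worms among the late groups were above 1 CPM. Late N2 on K12 over N2 on tnaA gave -4.999 ± 0.46 (adjusted p = 0.001), and ahr-1 worms over late N2 on K12 gave -0.94 ± 0.81 (adjusted p = 0.458). It held 3 reads over both ahr-1 libraries, against 204 reads over both tnaA libraries, a ratio of 65 of tnaA over ahr-1 after scaling, with an exact 95% counting interval of 21.9 to 318 that covers counting error only. In each of the 5 early libraries nhr-155 had 0 reads.

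The efflux pump gene pgp-1, a P-glycoprotein of the ABC transporter family, rose, with 62.5 and 67.2 CPM in ahr-1 worms, against 13.2 and 11.5 CPM in tnaA-fed worms (log2 fold change 2.38 ± 0.12, adjusted p = 2.58e-07). Late N2 on K12 stood between both groups at 39.8 and 37.9 CPM. Each step was called in the same fit: ahr-1 over N2 on K12 gave 0.74 ± 0.10 (adjusted p = 4.99e-04) and N2 on K12 over N2 on tnaA gave 1.64 ± 0.12 (adjusted p = 4.46e-05). The cytochrome P450 gene cyp-13A5 had 109 and 98.9 CPM in ahr-1 worms, against 32.9 and 30 CPM in tnaA-fed worms (1.71 ± 0.10, adjusted p = 8.07e-07), with 59.2 and 72.5 CPM in late N2 on K12. The gene F37H8.3 had 76.3 and 56.8 CPM in ahr-1 worms, against 8.73 and 10.2 CPM in tnaA-fed worms (2.83 ± 0.17, adjusted p = 8.07e-07), with 33.1 and 31.6 CPM in late N2 on K12. For these 3 genes the order was ahr-1 on K12, then N2 on K12, then N2 on tnaA, with no overlap between neighbouring groups.

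The cathepsin B-like protease gene cpr-2 rose, with 105 and 192 CPM in ahr-1 worms, against 14.6 and 11.4 CPM in tnaA-fed worms (3.48 ± 0.25, adjusted p = 3.68e-06). Late N2 on K12 had 12.7 and 12.7 CPM, within the range of the tnaA-fed worms, so that the ahr-1 libraries alone stood high. Of other large falls, the gap junction gene inx-19, an innexin of the olfactory AWC neurons, had 1.5 and 1.85 against 6.25 and 10.2 CPM (-2.26 ± 0.37, adjusted p = 0.0011). The homeodomain gene unc-42, which acts in command interneurons, had 3.93 and 2.66 against 10.3 and 14.3 CPM (-1.896 ± 0.30, adjusted p = 9.11e-04). The enoyl-CoA hydratase family gene ech-9 had 0.501 and 1.11 against 4.42 and 5.98 CPM (-2.64 ± 0.44, adjusted p = 0.00118). In each of these 3 genes the ahr-1 libraries were below both tnaA libraries.

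**Figure D2:**
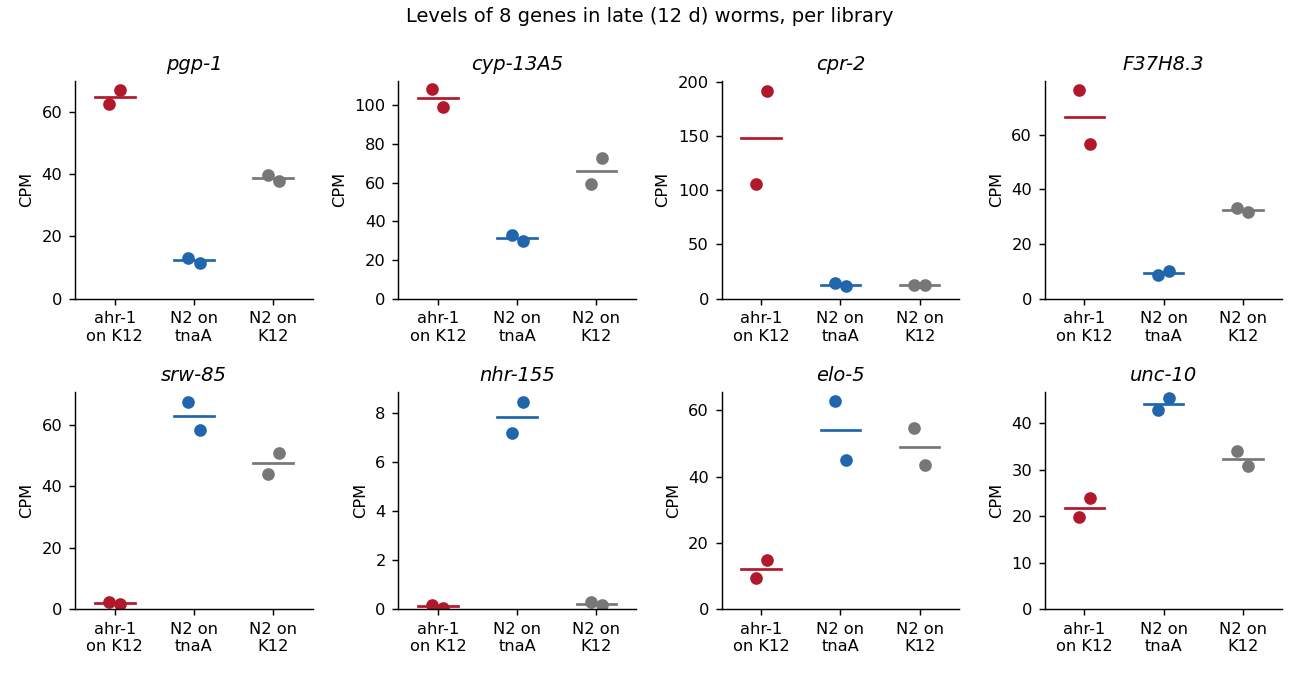
Levels of 8 genes in CPM (y axis, from 0) in each late library, by group on the x axis, with ahr-1 on K12 in red, N2 on tnaA in blue and N2 on K12 in grey; points are libraries and bars their means (n = 2 each). The level of srw-85 in late N2 on K12 (44.1 and 50.7 CPM) is near that of N2 on tnaA, whereas nhr-155 in late N2 on K12 (0.286 and 0.182 CPM) is near that of ahr-1 on K12.

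Among genes that handle foreign compounds, single members differed in both directions. Of 65 cytochrome P450 genes tested, 4 rose and 8 fell (6.15% and 12.3%), shares near those of all genes (9.32% and 9.92%). Beside cyp-13A5, cyp-37B1 rose (10.3 and 12.6 against 2.83 and 3.3 CPM, 1.91 ± 0.29, adjusted p = 6.81e-04), while cyp-13A10 (5.85 and 7.83 against 18.7 and 18.5 CPM, -1.44 ± 0.15, adjusted p = 8.27e-05) and cyp-14A5 (38.6 and 36.4 against 60.6 and 63.2 CPM, -0.72 ± 0.10, adjusted p = 3.20e-04) fell. Over the list rises numbered 2 without tnaA replicate 3. Its falls numbered 5 without tnaA replicate 2 or 3.

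Of 59 UDP-glucuronosyltransferase genes, whose enzymes attach sugars to lipophilic compounds, 7 rose and 12 fell (11.9% and 20.3%), with a median log2 fold change of -0.14. The rises included ugt-17 (27.2 and 31.1 against 9.67 and 9.38 CPM, 1.61 ± 0.12, adjusted p = 4.33e-06) and ugt-64 (38.5 and 41.9 against 22.7 and 18.5 CPM, 0.94 ± 0.12, adjusted p = 2.17e-04), and the falls ugt-18 (8.44 and 6.5 against 20 and 20.3 CPM, -1.43 ± 0.17, adjusted p = 1.50e-04). These members of one family thus moved in opposite directions. Of 41 glutathione S-transferase genes, 0 rose and 7 fell (0% and 17.1%), gst-24 among them (23.2 and 22.2 against 40.1 and 38.3 CPM, -0.79 ± 0.13, adjusted p = 0.00105). The 7 falls numbered between 2 and 4 without any one of 7 libraries, among them all 4 compared ones. By contrast gsr-1, which encodes glutathione reductase, rose (175 and 184 against 146 and 141 CPM, 0.32 ± 0.06, adjusted p = 0.00225).

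Of 51 ABC transporter genes, 5 rose and 12 fell (9.8% and 23.5%). With pgp-1, the peroxisomal half-transporter gene pmp-4 rose (33.9 and 35.9 against 17 and 14.7 CPM, 1.12 ± 0.14, adjusted p = 2.49e-04), as did pgp-14 (13.8 and 9.83 against 4.07 and 4.95 CPM, 1.41 ± 0.22, adjusted p = 9.12e-04). The multidrug resistance protein gene mrp-2 fell (121 and 111 against 211 and 211 CPM, -0.87 ± 0.07, adjusted p = 9.15e-06), as did the mitochondrial peptide exporter gene haf-1 (6.02 and 5.91 against 11.1 and 10.7 CPM, -0.87 ± 0.14, adjusted p = 0.00111) and the P-glycoprotein gene pgp-8 (17 and 17.3 against 34.9 and 32.4 CPM, -0.97 ± 0.12, adjusted p = 1.58e-04). The P-glycoprotein family therefore had members on both sides. Rises numbered 3 without tnaA replicate 3.

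Genes of the DNA replication machinery and the cell cycle were higher in ahr-1 worms. In an adult worm these transcripts come largely from the germ line, the dividing tissue of the adult. Of 37 genes tested, 25 rose and 0 fell (67.6%, beside 9.32% of all genes), with a median log2 fold change of 0.30 beside -0.01 for all genes. All 6 genes of the MCM replicative helicase rose, by log2 fold changes from 0.32 in mcm-7 to 0.44 in mcm-4, which had 359.7 and 371 against 271 and 266 CPM (adjusted p = 1.50e-04). The ribonucleotide reductase subunit gene rnr-2 had 1086 and 994 against 668 and 639.9 CPM (0.67 ± 0.06, adjusted p = 2.95e-05), the cyclin D gene cyd-1 194 and 169 against 103 and 109 CPM (0.78 ± 0.08, adjusted p = 7.87e-05) and the replication licensing gene cdt-1 119 and 125 against 88.5 and 79.2 CPM (0.53 ± 0.07, adjusted p = 1.97e-04). The sliding clamp gene pcn-1 had a log2 fold change of 0.39 ± 0.06, adjusted p = 9.91e-04. The changes were small in size but alike in direction, and with any 1 library left out 19 to 25 members rose. Summed over the members, ahr-1 libraries held 9378 and 9496 CPM, against 7489 and 7319 CPM in tnaA libraries, with 8059 and 7996 CPM in late N2 on K12. Early wild-type libraries on either bacterium ranged from 10546 to 11072 CPM.

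In other germline lists the number of rises changed with single libraries. Of 34 genes of the germ line and its P granules, 8 rose and 0 fell (23.5% and 0%), a share of rises above the 9.32% of all genes. Rises numbered 0 without tnaA replicate 3, 2 without ahr-1 replicate 3 and 5 without tnaA replicate 2, and there was 1 fall without ahr-1 on K12 replicate 3. Their summed levels overlapped, at 6619 and 7396 CPM in ahr-1 libraries, against 6826 and 6408 CPM in tnaA libraries. Late N2 on K12 held 8928 and 8207 CPM, above both compared groups. The DEAD-box helicase gene glh-4 had a log2 fold change of 0.38 ± 0.08, adjusted p = 0.00561 and the Piwi gene prg-1 of 0.36 ± 0.08, adjusted p = 0.00637; both calls were lost without N2 on tnaA replicate 3 or ahr-1 on K12 replicate 3. Of 30 oogenesis and eggshell genes, 4 rose and 0 fell (13.3% and 0%), among them mex-5, a regulator of embryonic polarity (576 and 651 against 487 and 464 CPM, 0.37 ± 0.07, adjusted p = 0.00237). Rises numbered 1 without tnaA replicate 2 or 3, 2 without ahr-1 replicate 3 and 9 without ahr-1 replicate 1, with 2 falls in the fit without ahr-1 on K12 replicate 3, and the list's median of 0.06 became -0.07 in that fit. Of 32 meiosis genes, 2 rose and 0 fell (6.25% and 0%), a share below the 9.32% of all genes, among them syp-1 of the synaptonemal complex (83.7 and 76.3 against 65.5 and 58.7 CPM, 0.36 ± 0.07, adjusted p = 0.00418). Rises numbered 1 without tnaA replicate 2 or 3 or ahr-1 replicate 1. Without ahr-1 on K12 replicate 3 there was 1 fall and the median of 0.08 became -0.02. The histone variant H2A.Z gene htz-1 rose as well (801 and 753 against 593 and 631 CPM, 0.34 ± 0.07, adjusted p = 0.00327), 1 of 3 rises and 2 falls among 40 tested histone genes (7.5% and 5%). The counts held 82 histone genes in all. Many of those not tested, such as his-9 and his-10, had 0 reads in every library, which does not show silence where near-identical copies exist. In that list rises numbered 1 without tnaA replicate 2 or 3. Its falls numbered 0 without tnaA replicate 3 or ahr-1 replicate 3 and 1 without ahr-1 replicate 1.

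Sperm transcripts were high in the ahr-1 libraries for late worms. Major sperm proteins form the cytoskeleton of the crawling nematode sperm. Their summed level was 78.1 and 84.6 CPM in ahr-1 libraries, against 12.4 and 3.3 CPM in tnaA libraries, with 1.6 and 1.82 CPM in late N2 on K12. All 28 tested genes of this family had a positive log2 fold change, with a median of 3.36, but only 5 passed the test (17.9%) and none did without any 1 of the 4 compared libraries. That count was 3 without either late N2 library on K12 and 12 to 19 without 1 of 4 of the early libraries. In other settings 25 members rose in the 4 compared libraries alone, 25 in the 6 late libraries, 7 with DESeq2 and 0 with the replicate block. Each of the 28 tested genes had a read in both ahr-1 libraries, against 1 and 16 of them with no read in the tnaA libraries. Of the 3 family members below the filter, msp-32 and msp-58 had 0 reads in all 11 libraries and msp-74 had 1 and 3 reads in ahr-1 libraries, against 1 and 0 in tnaA libraries. The counts of this multigene family share near-identical sequence, and how reads were split among its members is uncertain. Early wild-type libraries ranged from 25.6 to 304 CPM and varied widely within their groups. Of 22 other sperm genes 5 rose and 0 fell (22.7% and 0%), with summed levels of 152 and 164 CPM in ahr-1 libraries, against 134 and 125 CPM in tnaA libraries. The sperm phosphatase gene gsp-3 had 4.26 and 7.91 CPM in ahr-1 worms, against 0.59 and 0.103 CPM in tnaA-fed worms (3.899 ± 1.15, adjusted p = 0.0312), a call lost without N2 on tnaA replicate 2 or N2 on tnaA replicate 3 or ahr-1 on K12 replicate 3. The 5 rises numbered 0 without tnaA replicate 3, 1 without tnaA replicate 2 or ahr-1 replicate 3, 2 without ahr-1 replicate 1, 8 without early K12 replicate 2 and 9 without early K12 replicate 3. The part of this sperm RNA in the other germline changes was not tested.

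**Figure D3:**
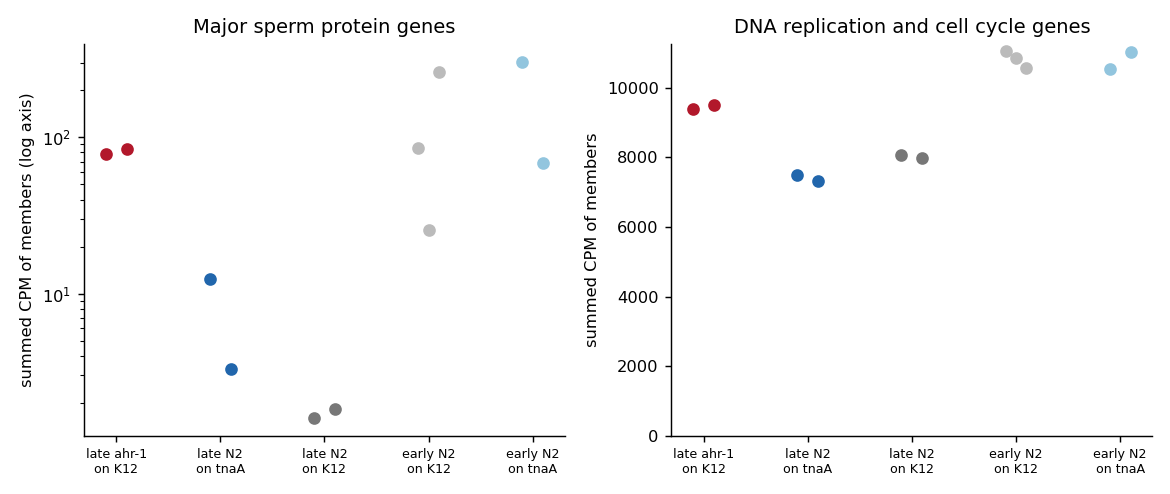
Summed CPM of the major sperm protein genes (left, log axis) and of the DNA replication and cell cycle genes (right, axis from 0) in each of the 11 libraries, 1 point per library, by group on the x axis. Both ahr-1 libraries lie above both late tnaA libraries in either panel (9378 and 9496 against 7489 and 7319 CPM on the right).

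Transcripts of the hypodermis, the epidermal layer that secretes the cuticle, were lower in ahr-1 worms. Of 13 tested genes of hypodermis and seam cells, 8 fell and 0 rose (61.5% and 0%), with a median log2 fold change of -0.55. Their summed level was 1717 and 1604 CPM in ahr-1 libraries, against 2460 and 2200 CPM in tnaA libraries. Late N2 on K12 lay between both groups, at 1921 and 2041 CPM. The GATA factor gene elt-3 had 11.4 and 9.38 CPM in ahr-1 worms, against 18.9 and 18.7 CPM in tnaA-fed worms (-0.86 ± 0.15, adjusted p = 0.00181). The nuclear receptor gene nhr-25, needed for moulting, had 27.5 and 25 CPM in ahr-1 worms, against 50.9 and 50.2 CPM in tnaA-fed worms (-0.95 ± 0.12, adjusted p = 2.11e-04), and the apical junction gene ajm-1 had 249 and 239 against 361 and 339 CPM (-0.52 ± 0.07, adjusted p = 2.84e-04). All were below both tnaA libraries in both ahr-1 libraries. The glycosyltransferase-like gene bus-8, which acts in the epidermis, had the largest fall of the list (13.2 and 12.7 against 28.9 and 37.9 CPM, -1.35 ± 0.29, adjusted p = 0.00642), a call lost without N2 on tnaA replicate 3. Falls in this list numbered 5 without ahr-1 replicate 3.

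Of 122 tested cuticle collagens, 16 fell and 2 rose (13.1% and 1.64%), with falls near the 9.92% of all genes, and the median log2 fold change was -0.40. Falls included col-48 (1.92 and 3.1 against 6.78 and 9.58 CPM, -1.67 ± 0.33, adjusted p = 0.00388), col-113 (6.77 and 8.2 against 15.8 and 15.3 CPM, -1.05 ± 0.18, adjusted p = 0.00152) and col-76 (22 and 23.8 against 51 and 42.2 CPM, -1.04 ± 0.13, adjusted p = 1.97e-04). Falls numbered 5 without tnaA replicate 3, 7 without ahr-1 replicate 1 and 10 without tnaA replicate 2. The 2 rises became 11, more than the 7 falls, without ahr-1 on K12 replicate 1, and 0 or 1 without any one of 7 other libraries. Of 32 moulting and larval cuticle genes, 5 fell and 2 rose (15.6% and 6.25%), with ptr-4, a patched-related gene needed for moulting, among the falls (28.8 and 32.8 against 93.3 and 75.3 CPM, -1.46 ± 0.24, adjusted p = 0.00104). In that list rises numbered 0 without tnaA replicate 2 or 3 or ahr-1 replicate 3. Its falls numbered 3 without ahr-1 replicate 3, 8 without early K12 replicate 3 and 9 without early K12 replicate 1.

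Many neuronal transcripts were lower in ahr-1 worms. Of 39 tested genes of neurons and synapses, 17 fell and 1 rose (43.6% and 2.56%), with a median log2 fold change of -0.40. Their summed level was 1253 and 1260 CPM in ahr-1 libraries, against 1452 and 1462 CPM in tnaA libraries. Late N2 on K12 lay between both groups, at 1357 and 1352 CPM, so the wild-type groups differed in this sum as well. Several act in the release of synaptic vesicles. The active zone gene unc-10, the worm RIM, had 19.9 and 23.9 CPM in ahr-1 worms, against 42.8 and 45.5 CPM in tnaA-fed worms (-1.005 ± 0.10, adjusted p = 6.34e-05), and the vesicle priming gene unc-13 had 47 and 46.9 against 73.5 and 69.9 CPM (-0.61 ± 0.08, adjusted p = 2.61e-04). The presynaptic calcium channel gene unc-2 had 60.6 and 59.9 against 87.5 and 88.8 CPM (-0.55 ± 0.08, adjusted p = 6.44e-04) and unc-18, which encodes the worm Munc18, 55.2 and 55.2 against 73.7 and 73.9 CPM (-0.42 ± 0.06, adjusted p = 5.99e-04). In these 4 genes the ahr-1 libraries were the lower ones, and late N2 on K12 had 34.1 and 30.8 CPM of unc-10. The synaptotagmin gene snt-1 (-1.103 ± 0.20, adjusted p = 0.00221) and the vesicle GTPase gene rab-3 (-0.89 ± 0.16, adjusted p = 0.00177) fell as well. Falls numbered 8 without tnaA replicate 3, 10 without ahr-1 replicate 1 and 11 without tnaA replicate 2 or ahr-1 replicate 3. The 1 rise was lost without any one of 8 libraries.

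Of 63 neuropeptide genes, 7 fell and 1 rose (11.1% and 1.59%), while the list's median of 0.01 lay at that of all genes. The falls included nlp-20 (2.67 and 3.77 against 10.1 and 12.2 CPM, -1.76 ± 0.18, adjusted p = 5.74e-05), flp-8 (3.18 and 2.22 against 5.43 and 7.11 CPM, -1.203 ± 0.24, adjusted p = 0.00362) and flp-25 (15.2 and 14.6 against 23.1 and 23.7 CPM, -0.65 ± 0.11, adjusted p = 0.00117), and the rise was nlp-18 (11 and 11.6 against 5.6 and 7.42 CPM, 0.82 ± 0.16, adjusted p = 0.00331), a call lost without N2 on tnaA replicate 2. The count of falls was 3 or 4 without any one of 7 libraries, among them 3 of the 4 compared ones. Of 30 insulin-like peptide genes, 0 were called in either direction by edgeR's test, and falls numbered 1 without early K12 replicate 2 or ahr-1 replicate 1 and 2 without early K12 replicate 3.

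Nuclear hormone receptors, a family greatly expanded in nematodes, fell in number. Of 201 tested, 58 fell and 6 rose (28.9% and 2.99%), with a median log2 fold change of -0.31. The members summed to 2891 and 2703 CPM in ahr-1 libraries, against 3495 and 3514 CPM in tnaA libraries. Late N2 on K12 held 2795 and 2884 CPM, within the range of the ahr-1 libraries, so worms on K12 of both genotypes had a lower sum than tnaA-fed worms. Beside nhr-155 and nhr-25, nhr-137 (14.6 and 15.1 against 41.9 and 38.4 CPM, -1.44 ± 0.09, adjusted p = 1.52e-06), nhr-136 (12 and 9.53 against 32 and 28.6 CPM, -1.500 ± 0.16, adjusted p = 8.41e-05) and nhr-3 (44.8 and 37.4 against 78.8 and 84 CPM, -0.99 ± 0.09, adjusted p = 2.37e-05) fell. Of the receptors with a known ligand or target, daf-12, which binds the bile acid-like dafachronic acids, had 33.5 and 29.7 against 54.5 and 52.5 CPM (-0.76 ± 0.09, adjusted p = 1.50e-04). Falls numbered 25 without ahr-1 replicate 3, 31 without tnaA replicate 2 or 3 and 37 without ahr-1 replicate 1, so every fit without 1 compared library held at least 25 falls. The 6 rises were 1 without tnaA replicate 2 or 3 and 2 without ahr-1 replicate 1.

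**Figure D4:**
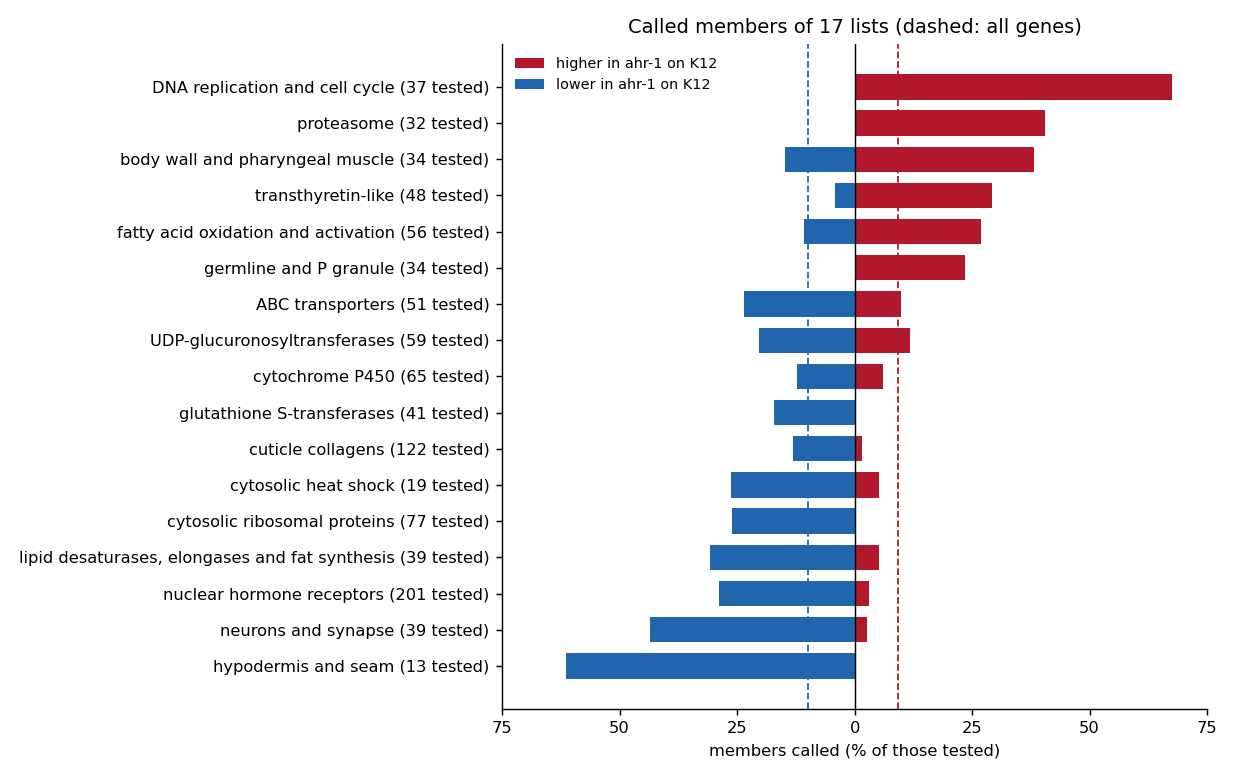
Share of the tested members of 17 lists called higher (red, to the right) or lower (blue, to the left) in late ahr-1 on K12 against late N2 on tnaA, in percent on the x axis. Dashed lines mark the shares among all genes tested, 9.32% higher and 9.92% lower; DNA replication stands out to the right (67.6% higher) and the hypodermis list to the left (61.5% lower).

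Several genes of fatty acid synthesis and elongation were lower in ahr-1 worms. Of 39 tested, 12 fell and 2 rose (30.8% and 5.13%). The elongase gene elo-5, which makes monomethyl branched-chain fatty acids, had 9.53 and 15 CPM in ahr-1 worms, against 62.9 and 45 CPM in tnaA-fed worms (-2.15 ± 0.21, adjusted p = 4.41e-05), and its partner in that route, elo-6, had 13.4 and 20.5 against 50.2 and 35.9 CPM (-1.36 ± 0.27, adjusted p = 0.00353). The palmitate elongase gene elo-2 had 30.8 and 31.3 against 62 and 59.3 CPM (-0.97 ± 0.09, adjusted p = 2.26e-05). Both ahr-1 libraries lay below both tnaA libraries in these elongases, and late N2 on K12 held 54.6 and 43.4 CPM of elo-5. The fatty acid synthase gene fasn-1 (1033 and 966 against 1567 and 1351 CPM, -0.55 ± 0.07, adjusted p = 3.18e-04), the delta-9 desaturase genes fat-5 (-0.96 ± 0.19, adjusted p = 0.00417) and fat-6 (-0.56 ± 0.10, adjusted p = 0.0017), and sbp-1, the worm SREBP that regulates such genes (-0.43 ± 0.08, adjusted p = 0.00268), fell too. The acyltransferase gene acl-7 rose (37.5 and 33 against 22.2 and 21.2 CPM, 0.69 ± 0.11, adjusted p = 9.03e-04). Falls numbered 6 without tnaA replicate 2, the calls lost then including those of elo-6 and fat-5.

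Of 56 genes of fatty acid oxidation and activation, 15 rose and 6 fell (26.8% and 10.7%). The carnitine palmitoyltransferase gene cpt-1 rose (702 and 695 against 497 and 495 CPM, 0.49 ± 0.06, adjusted p = 2.63e-04), and so did the acyl-CoA synthetase gene acs-22 (58.7 and 62.6 against 35.6 and 36.1 CPM, 0.76 ± 0.08, adjusted p = 9.98e-05), whereas its relative acs-20 (21.5 and 19.7 against 38.8 and 41.1 CPM, -0.96 ± 0.11, adjusted p = 1.10e-04) and the hydroxyacyl-CoA dehydrogenase gene hacd-1 (33.6 and 44.4 against 109 and 88.2 CPM, -1.34 ± 0.20, adjusted p = 5.41e-04) fell. Rises numbered 5 without ahr-1 replicate 3, 6 without tnaA replicate 3 and 9 without tnaA replicate 2. Among 21 lipase genes 3 rose and 4 fell (14.3% and 19%), with lips-11 (15.5 and 28.6 against 4.07 and 2.99 CPM, 2.61 ± 0.30, adjusted p = 1.40e-04) and lipl-7 (44 and 38.4 against 24.8 and 25.5 CPM, 0.71 ± 0.10, adjusted p = 3.76e-04) higher and falls numbering 2 without tnaA replicate 2 or 3 or ahr-1 replicate 1.

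In the folate and methionine cycle, 4 of 21 genes rose and 3 fell (19% and 14.3%), with falls numbering 1 without ahr-1 replicate 1. The S-adenosylmethionine synthetase gene sams-1 fell (49.6 and 42.4 CPM in ahr-1 worms, against 79.6 and 98.1 CPM in tnaA-fed worms, -0.94 ± 0.13, adjusted p = 3.88e-04). Rises were seen in ahcy-1, which clears S-adenosylhomocysteine (1003 and 1152 against 790.5 and 794 CPM, 0.44 ± 0.07, adjusted p = 7.78e-04), in mthf-1, the methylenetetrahydrofolate reductase (196 and 195 against 156 and 154 CPM, 0.33 ± 0.06, adjusted p = 0.00166), and in tyms-1, the thymidylate synthase (107 and 126 against 85.5 and 80.8 CPM, 0.48 ± 0.08, adjusted p = 0.00107). The synthetase and the hydrolase at both ends of methyl transfer thus moved in opposite directions. Of 11 genes of tryptophan use, 2 fell and 0 rose (18.2% and 0%), among them tdo-2, the tryptophan 2,3-dioxygenase (18.7 and 23.2 against 32.7 and 29.3 CPM, -0.57 ± 0.12, adjusted p = 0.00688), a call lost without N2 on tnaA replicate 2 or ahr-1 on K12 replicate 1, and falls numbered 0 without tnaA replicate 2 or ahr-1 replicate 1 and 1 without early tnaA replicate 2 or 3 or tnaA replicate 3.

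Genes of protein synthesis and turnover shifted by small amounts in opposite directions. Of 77 genes of cytosolic ribosomal proteins, 20 were lower and 0 higher in ahr-1 worms (26% and 0%), at a median of -0.13. The stalk protein gene rla-0 had 1829 and 1892 against 2224 and 2296 CPM (-0.28 ± 0.06, adjusted p = 0.00378). Falls numbered 1 without tnaA replicate 3 and 7 without ahr-1 replicate 1, while scaling by RLE size factors gave 30, by library size 35 and DESeq2 41. Of 32 proteasome genes, 13 rose and 0 fell (40.6% and 0%), with a median of 0.14. Their summed level was 6724 and 7361 CPM in ahr-1 libraries, against 6393 and 6258 CPM in tnaA libraries. Late N2 on K12, at 7390 and 7190 CPM, was also above both tnaA libraries. The base subunit gene rpn-1 had a log2 fold change of 0.27 ± 0.05, adjusted p = 0.00439. Those rises numbered 1 without tnaA replicate 3 or ahr-1 replicate 3 and 5 without tnaA replicate 2, so most of these calls rested on single libraries, among them that of rpn-1, lost without N2 on tnaA replicate 3. Of 25 translation factor genes 1 rose and 3 fell (4% and 12%), with the elongation factor gene eef-1A.2 lower (1515 and 1397 against 1851 and 1934 CPM, -0.38 ± 0.07, adjusted p = 0.00289), and the list's rises numbered 0 without tnaA replicate 3 or ahr-1 replicate 3. Its falls numbered 1 without tnaA replicate 2 or 3. The box C/D snoRNP gene nol-5 rose (369 and 404 against 315 and 280.0 CPM, 0.38 ± 0.07, adjusted p = 0.00229), 1 of 2 rises and 1 fall among 18 genes of the nucleolus (11.1% and 5.56%), the fall being lost without any one of 10 libraries.

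Several inducible chaperones of the cytosol were lower in ahr-1 worms. Of 19 tested, 5 fell and 1 rose (26.3% and 5.26%). The listed genes hsp-16.1, hsp-16.11, hsp-16.48 and hsp-16.49 had 0 reads in every library and were not tested. How reads of near-identical copies were counted is not known, so 0 reads do not show that these genes were silent. The small heat shock genes hsp-16.41 (66.7 and 47.4 CPM in ahr-1 worms, against 139 and 159 CPM in tnaA-fed worms, -1.39 ± 0.13, adjusted p = 3.80e-05) and hsp-16.2 (73.3 and 55.5 against 138 and 151 CPM, -1.17 ± 0.15, adjusted p = 2.50e-04) fell, as did the heat-inducible hsp-70 (91.3 and 82 against 169 and 176 CPM, -0.99 ± 0.11, adjusted p = 9.58e-05) and its nucleotide exchange factor hsp-110 (592 and 595 against 843 and 926 CPM, -0.58 ± 0.06, adjusted p = 8.89e-05). The DnaJ cochaperone gene dnj-13 had a log2 fold change of -0.48 ± 0.06, adjusted p = 3.06e-04. The remaining call, hsp-17, ran the other way (24.2 and 24 against 15.8 and 13.4 CPM, 0.705 ± 0.16, adjusted p = 0.00749) and was lost without N2 on tnaA replicate 3. The count of falls was 5 in each of the fits without 1 library. In the endoplasmic reticulum list 5 of 23 genes rose and 0 fell (21.7% and 0%), with sel-1 of the degradation pathway at 0.397 ± 0.06, adjusted p = 8.26e-04 and rises numbering 1 without tnaA replicate 3 and 3 without tnaA replicate 2 or ahr-1 replicate 1. Of 15 mitochondrial stress genes, 0 rose and 2 fell (0% and 13.3%), with 1 fall without any one of the 4 compared libraries.

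**Figure D5:**
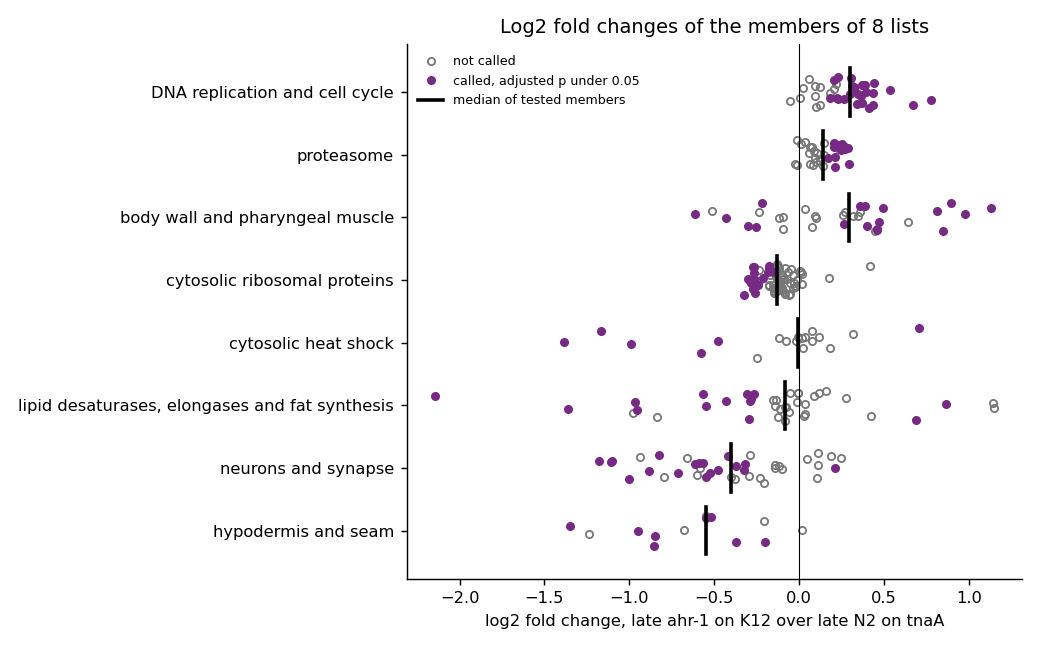
Log2 fold change of late ahr-1 on K12 over late N2 on tnaA (x axis) of every tested member of 8 lists (rows); filled points are called at an adjusted p under 0.05, open points are not, and black bars mark the median of the tested members. DNA replication genes lie to the right (median 0.30), neuronal and hypodermal genes to the left (medians -0.40 and -0.55).

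Muscle genes moved in both directions. Of 34 tested, 13 rose and 5 fell (38.2% and 14.7%), with a median of 0.29. The pharyngeal myosin heavy chain gene myo-2 had 38 and 40.3 CPM in ahr-1 worms, against 19.6 and 23.1 CPM in tnaA-fed worms (0.89 ± 0.15, adjusted p = 0.00163), the pharyngeal troponin T gene tnt-4 had 9.11 and 9.53 against 4.42 and 4.02 CPM (1.13 ± 0.20, adjusted p = 0.00166) and the myosin light chain gene mlc-1 had 19 and 26.3 against 12.2 and 10.7 CPM (0.98 ± 0.14, adjusted p = 4.60e-04). Both ahr-1 libraries were above both tnaA libraries in these 3 genes. The vinculin gene deb-1, which anchors filaments at the muscle membrane, fell (44.2 and 37.8 against 62.2 and 62.9 CPM, -0.61 ± 0.10, adjusted p = 8.34e-04). Rises numbered 5 without tnaA replicate 2 or 3 and 7 without ahr-1 replicate 3. Falls were 3 or fewer without any one of 8 libraries.

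Among 28 intestinal markers tested there were 3 rises and 6 falls (10.7% and 21.4%), with rises near the 9.32% of all genes. The oligopeptide transporter gene pept-1, which takes up digested peptides, fell (12.2 and 16.1 CPM in ahr-1 worms, against 36.9 and 24.8 CPM in tnaA-fed worms, -1.15 ± 0.19, adjusted p = 0.00105), as did the aspartyl protease gene asp-5 (86.5 and 102 against 153 and 142 CPM, -0.65 ± 0.12, adjusted p = 0.00199). Over the list rises numbered 0 without tnaA replicate 3 and 1 without ahr-1 replicate 1 or 3. Its falls numbered 3 without tnaA replicate 3 or ahr-1 replicate 3. Of the 6 vitellogenin genes, which encode the yolk proteins made by the intestine, vit-3 was the 1 call (8.11 and 131 CPM in ahr-1 worms, against 11.1 and 12.7 CPM in tnaA-fed worms, 2.57 ± 0.79, adjusted p = 0.0369), but its groups overlap and the high value is ahr-1 on K12 replicate 3 alone. Without that library vit-3 had a log2 fold change of -0.53 (adjusted p = 0.462). Log2 fold changes of the other 5 were 0.09 in vit-1, 0.05 in vit-2, 1.23 in vit-4, 0.15 in vit-5 and -0.03 in vit-6, with none called. The value of vit-1 turned on single libraries, at -1.62 (adjusted p = 3.63e-04) and called lower without ahr-1 on K12 replicate 3, and at 0.84 (adjusted p = 0.00292) and called higher without ahr-1 on K12 replicate 1. Of 48 transthyretin-like genes, a nematode family of secreted proteins, 14 rose and 2 fell (29.2% and 4.17%), led in p by ttr-42 (16.4 and 11.9 against 7.55 and 5.26 CPM, 1.08 ± 0.18, adjusted p = 0.00106). In that family rises numbered 5 without tnaA replicate 2, 6 without tnaA replicate 3, 7 without ahr-1 replicate 3 and 8 without ahr-1 replicate 1. Its falls numbered 0 without tnaA replicate 2 or ahr-1 replicate 3 and 1 without tnaA replicate 3.

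In lists of innate immunity single members differed in both directions. Of 12 lysozyme genes, 3 rose and 5 fell (25% and 41.7%). The invertebrate-type lysozyme gene ilys-5 had 36.8 and 60.1 against 12.1 and 20 CPM (1.66 ± 0.22, adjusted p = 3.22e-04) and lys-4 had 15.5 and 23.9 against 60.5 and 52.3 CPM (-1.52 ± 0.18, adjusted p = 1.58e-04). These enzymes of bacterial cell wall digestion thus differed in opposite directions. Over the list rises numbered 1 without tnaA replicate 2 or 3 or ahr-1 replicate 3. Its falls numbered 1 without tnaA replicate 2, 2 without tnaA replicate 3 and 3 without ahr-1 replicate 1. Of 129 C-type lectin genes 13 rose and 6 fell (10.1% and 4.65%), with rises near and falls below the shares of all genes (9.32% and 9.92%), with clec-91 higher (259.7 and 269.8 against 171 and 149 CPM, 0.72 ± 0.06, adjusted p = 2.61e-05) and clec-47 lower (3.26 and 4.66 against 12.6 and 14.2 CPM, -1.75 ± 0.25, adjusted p = 4.60e-04). Rises numbered 6 without tnaA replicate 3 and 8 without ahr-1 replicate 3, and falls 2 without tnaA replicate 2 or ahr-1 replicate 1 and 3 without tnaA replicate 3. Of 58 antimicrobial peptide and saposin-like genes 10 rose and 6 fell (17.2% and 10.3%), among them the caenacin gene cnc-2 (23.7 and 24 against 9.73 and 9.38 CPM, 1.32 ± 0.12, adjusted p = 3.49e-05) and fipr-21 (18.9 and 18 against 36.1 and 29.2 CPM, -0.84 ± 0.14, adjusted p = 9.99e-04). Rises there numbered 3 without tnaA replicate 3 and 5 without tnaA replicate 2, and falls 2 without tnaA replicate 2 and 3 without tnaA replicate 3. In the PMK-1 list 1 of 19 genes rose and 5 fell (5.26% and 26.3%). The MAP kinase kinase gene sek-1 of that pathway (61.9 and 60.6 against 83.8 and 77.7 CPM, -0.403 ± 0.07, adjusted p = 0.00106) and its phosphatase gene vhp-1 (356 and 297 against 497 and 494 CPM, -0.602 ± 0.08, adjusted p = 4.09e-04) fell together. Over the list rises numbered 0 without tnaA replicate 2 or 3 or ahr-1 replicate 3. Its falls numbered 2 without tnaA replicate 3 or ahr-1 replicate 3.

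Other lists follow, given as rises and falls of the tested members. The HIF-1 pathway had 1 higher and 5 lower of 15 (6.67% and 33.3%), with cysl-1, which acts upstream of HIF-1 in the hydrogen sulfide response, lower (26.9 and 27.1 against 43.9 and 44.7 CPM, -0.71 ± 0.08, adjusted p = 9.58e-05). Metal binding and transport had 2 higher and 4 lower of 18 (11.1% and 22.2%), with the heme transporter gene hrg-1 lower (29.9 and 25.1 against 51 and 51.2 CPM, -0.896 ± 0.09, adjusted p = 5.20e-05). Insulin signalling and DAF-16 targets had 4 higher and 1 lower of 26 (15.4% and 3.85%), with the kinase gene pdk-1 higher (42.2 and 40.3 against 27.6 and 26 CPM, 0.62 ± 0.11, adjusted p = 0.00215). Autophagy had 2 higher and 4 lower of 30 (6.67% and 13.3%), with atg-13 lower (-0.31 ± 0.06, adjusted p = 0.00382), and lysosomal and digestive proteases had 3 higher and 5 lower of 29 (10.3% and 17.2%), with cpz-1 higher (0.45 ± 0.08, adjusted p = 0.00223). Oxidative phosphorylation had 5 higher and 2 lower of 34 (14.7% and 5.88%), with the complex I gene nuo-1 higher (0.32 ± 0.06, adjusted p = 0.0025), and mitochondrial ribosomal proteins had 0 higher and 4 lower of 66 (0% and 6.06%). Antioxidant enzymes had 1 higher and 2 lower of 24 (4.17% and 8.33%), propionate breakdown 2 higher and 0 lower of 11 (18.2% and 0%), hedgehog-related genes 0 higher and 3 lower of 39 (0% and 7.69%) and early embryo genes 1 higher and 1 lower of 13 (7.69% and 7.69%). F-box and MATH-BTB genes had 26 higher and 16 lower of 356 (7.3% and 4.49%), below both shares of all genes (9.32% and 9.92%), long noncoding RNA genes 0 higher and 2 lower of 55 (0% and 3.64%), and coelomocyte and pharyngeal gland markers 0 higher and 0 lower of 11 (0% and 0%). Most of these counts rested on single libraries, and the following are counts of rises or falls without a library. In the F-box and MATH-BTB list rises numbered 8 without tnaA replicate 3, 14 without ahr-1 replicate 3 and 15 without tnaA replicate 2 or ahr-1 replicate 1. Its falls numbered 6 without ahr-1 replicate 3, 7 without tnaA replicate 3 and 10 without tnaA replicate 2. In the HIF-1 pathway rises numbered 0 without tnaA replicate 2 and 2 without ahr-1 replicate 3. Its falls numbered 1 without tnaA replicate 3 or ahr-1 replicate 3 and 3 without early tnaA replicate 3. In metal binding and transport rises numbered 0 without tnaA replicate 3. Its falls numbered 2 without tnaA replicate 3 or ahr-1 replicate 1 or 3. In the insulin and DAF-16 list rises numbered 1 without tnaA replicate 3. Its falls numbered 0 without tnaA replicate 2 or 3 and 2 without early K12 replicate 2 or 3 or ahr-1 replicate 3. In autophagy rises numbered 0 without tnaA replicate 2 or 3 or ahr-1 replicate 3 and 1 without K12 replicate 1 or 3. Its falls numbered 1 without ahr-1 replicate 3 and 2 without tnaA replicate 2 or 3. Protease falls numbered 2 without tnaA replicate 2 or ahr-1 replicate 1. In oxidative phosphorylation rises numbered 1 without ahr-1 replicate 3, 2 without tnaA replicate 2 and 3 without tnaA replicate 3. Its falls numbered 0 without tnaA replicate 2 or ahr-1 replicate 1 and 1 without ahr-1 replicate 3. Falls of mitochondrial ribosomal proteins numbered 1 without tnaA replicate 3 or ahr-1 replicate 3, and those of long noncoding RNA genes 0 without tnaA replicate 3 or ahr-1 replicate 3. In the hedgehog-related list rises numbered 1 without ahr-1 replicate 1. Its falls numbered 0 without tnaA replicate 3, 1 without tnaA replicate 2 or ahr-1 replicate 3 and 5 without early K12 replicate 1. The 2 antioxidant falls were 0 or 1 without any one of 10 libraries, and the 2 propionate rises 1 without any one of 9. Of both early embryo calls, the rise was lost without any one of 3 libraries and the fall without any one of 9.

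In young wild-type worms, whose labels differ only in the bacteria, few genes were called, in a number that depended on the setting. The early libraries also varied within groups. Their major sperm protein genes summed to 85.9, 25.6 and 263 CPM in K12 replicates 1 to 3, and to 304 and 68.0 CPM in tnaA replicates 2 and 3. The part of this variation in the number of calls was not tested. Early N2 on K12 against early N2 on tnaA gave 2 genes higher (0.0132%) and 8 lower (0.0529%), while 650 and 493 had an unadjusted p under 0.05 in those directions. The 10 calls became 205 without early N2 on K12 replicate 1, 43 without early N2 on K12 replicate 3, 4 or 5 without any one of 4 other libraries, 6 with library size only, 6 with the replicate block, 445 without the filter on low counts and 87 with DESeq2. That comparison shares no library with the late one. Of the 10 genes, 4 were also called between late ahr-1 on K12 and late N2 on tnaA, where 19.2% of all genes were called in either direction. The efflux pump gene pgp-1 was higher in both, as 1 of the 2 early rises (50%) and 0.0709% of the 1410 late rises. In early worms it averaged 11.5 ± 1.72 CPM on K12 and 4.24 ± 0.69 CPM on tnaA (SD, n = 3 and 2), with a log2 fold change of 1.43 ± 0.16 (adjusted p = 0.00297). The genes W03F9.1 and C49G7.7 were lower in both, as 25% of the 8 early falls and 0.133% of the 1501 late falls. Their late log2 fold changes were -0.298 ± 0.08 and -0.61 ± 0.20, and their early ones -0.43 ± 0.07 and -1.201 ± 0.17, with the late calls of both lost without single libraries, among them either N2 library on tnaA. The fourth gene, pqn-32, went in opposite directions, at 3.47 ± 0.51 in early worms and -1.49 ± 0.29 between the late groups. Its levels in late worms were 6.85 and 6.58 CPM in ahr-1 worms, against 16.8 and 21.3 CPM in tnaA-fed worms.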

How the data were processed

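The authors deposited raw counts, 1 table per library (11 in all, genes in rows). Trim Galore, STAR, HTSeq 0.6.1p2 and DESeq2 are the tools named in the submitters' processing notes. Build, annotation and strandedness were not given in the sources used, so reads of overlapping or antisense genes and of near-identical copies cannot be told apart. The authors' DESeq2 tables, with 8 columns of sample values, were not used. Of gene, no-gene and ambiguous reads together, 6.14% to 14.8% per library fell in no gene and at most 0.296% were ambiguous. Both kinds stayed out of library sizes.

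The fit used edgeR 4.0.16 in R 4.3.3. The filter (filterByExpr by group, minimum count 10) kept 15133 of 42048 genes. After TMM scaling, 1 quasi-likelihood fit of all 11 libraries, with each group's own mean, left 6 residual degrees of freedom. P-values of the two-sided F test were corrected by Benjamini-Hochberg across the 15133 genes, with calls at 0.05. The standard error is the size of the unshrunk log2 fold change over the square root of F. The printed log2 fold change is edgeR's slightly shrunken value, so both can differ for genes with few reads. With 2 libraries against 2, an exact permutation test of 1 gene cannot go below p = 0.333. Replicate libraries differed beyond counting error (chi-square over degrees of freedom 2.90 to 5.42), and p-values measure only the spread between these libraries. No molecular identifiers are named in the labels, so counting intervals treat reads as independent. DESeq2 1.42.0, other scalings and filters, a replicate block and leaving out each library were tried, and the procedure was tested on simulated data.

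The comparison, the 53 gene lists and the named genes were chosen with earlier results of these data known. Of the listed members 55 were not found among the symbols. Named genes were ahr-1, aha-1, the vitellogenins, the 15 largest rises and 15 largest falls with at least 5 CPM and no overlap, the called members of lowest p in each list, up to 4, members of lists of 15 or fewer genes, and genes also called between early groups. The genes elo-6, fat-5, fat-6, sbp-1, bus-8, snt-1, rab-3, mcm-7, pcn-1, daf-12, pgp-14, dnj-13 and hsp-17 were added after their values were seen. No sequence or coordinate is printed.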

Additional observations from a re-analysis of the deposited data

How the results depend on the processing

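Recounted under other settings, genes higher and lower in ahr-1 worms numbered 1251 and 1699 with RLE size factors, 1379 and 1668 with library size only, 1660 and 1634 without the filter on low counts, 1450 and 1556 among genes of at least 5 CPM, 925 and 1104 with DESeq2, 1570 and 1509 in the 4 compared libraries alone and 1629 and 1665 in the 6 late libraries. With a replicate block they numbered 759 and 867. In the main fit the numbers were not used to pair the samples, since the compared groups share only number 3. Deviations of same-numbered libraries correlated between -0.545, for 2 early libraries, and 0.149, with -0.0558 for replicate 3 of the compared groups. Deviations within a group of 2 libraries are equal and opposite, so these values cannot decide whether the numbers pair the samples. Leaving out 1 library each gave 584 to 1587 higher and 775 to 1624 lower genes, on the assumption that a lone remaining sample varies like the other groups. The 10 genes called between early groups became 445 without the filter, 87 with DESeq2, 6 with library size only, 6 with the replicate block, and 4 to 205 without 1 library. The cause of these shifts was not tested, apart from the smaller number of samples. Leaving out 1 library each, the log2 fold change of vit-3 ran from -0.527 to 3.47 and that of vit-1 from -1.62 to 0.839, and both were below 0 without ahr-1 on K12 replicate 3 (adjusted p = 0.462 and 3.63e-04). Of 228 named genes called, 109 were called under all 19 alternatives, and 197 with DESeq2, 169 with the replicate block and 145 without N2 on tnaA replicate 3, the lowest. A gene removed by a setting's filter counted as not called there, as nhr-155 was among genes of at least 5 CPM. Depth limits low genes: ahr-1 itself held 14 to 44 reads in the compared libraries.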

Other observations

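Called genes were spread unevenly over chromosomes, described here after the values were seen and without a test. Of 13413 tested symbols placed on a chromosome by the WBcel235 annotation, 14.9% of 1983 on the X chromosome were lower in ahr-1 worms and 7.01% higher. On chromosome I, 8.77% of 2098 were lower and 11.1% higher, and on chromosome V 11.5% of 2706 were lower and 8.35% higher. By at least 4-fold, chromosome V held 14 falls and 23 rises, while the X chromosome held 2 falls and 1 rise.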
